A study of Mus musculus with 6 samples.

Results

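Gm10800, Gm10801, Gm10718, Gm10722 and Gm16869 are 5 annotated mouse genes that lie in or beside copies of the major satellite, and the read pairs described here are those with 1 of these names at either end. They were 2784 of the 8319389 lines of the 4 MARIO libraries made from cultured cells, or 2735 distinct pairs once lines with equal coordinates and strands at both ends were counted as 1. The genes were chosen by the read pairs that join them to each other in the merged ES-1 and ES-2 data. The number of such pairs in those libraries is therefore given as a description, and nothing is read from tests there. MARIO joins RNA fragments that a protein holds together, by way of a biotin-tagged linker, into a molecule RNA1, linker, RNA2, and each read pair gives the place and name of both fragments.

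All 3 ES libraries (ES-1, ES-2, ES indirect) were made from the embryonic stem (ES) cell line E14 of strain 129/Ola, grown without feeder cells in LIF, with a separate assay for each library. MEF came from embryonic fibroblasts of strain C57Bl/6 by the labels, a strain that the methods write differently. Ultraviolet light of 254 nm and RNase I were used for MEF and both of the first ES libraries, with RNA cut, per the labels, to about 1000 nt in ES cells and 300 nt in MEF. The study's methods give ES-1 a range that reaches higher, and fragment size can thus vary between both UV assays of ES cells too. For ES indirect, formaldehyde and EGS served as crosslinkers, which also tie proteins together, and the RNA was sonicated to about 1000 nt. A duplex-specific nuclease depleted ribosomal RNA from the libraries ES indirect and ES-1, and the GeneRead kit from MEF and ES-2, so depletion differs between the ES libraries. MEF differs from every ES library in strain and fragment size as well as cell type, and shares its depletion kit with ES-2 alone. ES indirect and MEF have 1 library each, and only ES-1 and ES-2 give a spread between assays.

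The major satellite is the tandem repeat that makes up most of the heterochromatin beside mouse centromeres. It is known to be transcribed from both strands, and its RNA is known to be bound by heterochromatin proteins in ES cells. Most of its copies are missing from the assembled genome, so the few copies that were assembled, some of them annotated as predicted genes, stand in for a much larger array.

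In NCBIM37 (mm9), Gm10800 (ENSMUSG00000075014, chr2:98506704-98507458, minus strand) and Gm10801 (ENSMUSG00000075015, chr2:98502394-98504240, plus strand) are predicted protein-coding genes on chromosome 2. Gm10718 (ENSMUSG00000074562, chr9:3023547-3025218, plus strand) and Gm10722 (ENSMUSG00000091028, chr9:3000922-3002330, plus strand) are predicted protein-coding genes at the start of chromosome 9. Gm16869 (ENSMUSG00000087580, chr9:3000282-3038313) is a lincRNA of the minus strand that spans both of them, antisense. A repeat unit of 234 nt was read from the genome at Gm10800 and, separately, at Gm10722, and both are shown because every position and strand below refers to them. They are written in the sense of these genes, and capitals mark the 6 bases at which they differ.
Gm10800 unit: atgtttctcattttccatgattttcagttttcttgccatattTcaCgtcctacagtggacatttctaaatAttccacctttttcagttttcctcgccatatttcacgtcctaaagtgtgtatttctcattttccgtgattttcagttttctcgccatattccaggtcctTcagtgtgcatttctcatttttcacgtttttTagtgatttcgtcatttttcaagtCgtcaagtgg
Gm10722 unit: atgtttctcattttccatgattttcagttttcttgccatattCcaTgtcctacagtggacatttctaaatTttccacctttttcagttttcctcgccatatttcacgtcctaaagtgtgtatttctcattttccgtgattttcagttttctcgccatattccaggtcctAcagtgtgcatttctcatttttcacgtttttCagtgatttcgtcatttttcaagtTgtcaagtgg

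This strand of the unit holds 45.7% T and 17.9% A, and is called the T-rich strand here. The complement is called the A-rich strand. The sense of Gm10800, Gm10801, Gm10718 and Gm10722 is the T-rich strand, and that of Gm16869 is the A-rich strand. At an identity of at least 80%, the unit covered 99.3% of Gm10800, 99.9% of Gm10718, 99.4% of Gm10722 and all of Gm16869. Gm10801 was the exception, with 49.8% of its length like the unit. The label of the family was checked in the same way on fragments that carry the repeat name of the major satellite, GSAT_MM, of which 134 of 134, 51 of 52, 871 of 874 and 3 of 5 were like the unit, in the order given above for the libraries.

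ES-1 held 2310134 distinct pairs, and ES-2 held 1241787. The library of ES indirect held 1655476, and that of MEF held 373978. The labelled cell types were borne out by markers, since Sox2 had 43.5 to 48.0 fragments per 1000000 in the ES libraries against 8.02 in MEF, and Col1a1 had 1.61 to 2.11 against 250. S100a4 was near 0 in every library, at 1.34 per 1000000 in MEF. The brain libraries held 0 lines with a member among 1045814 and 1114447, which allows up to 2.87 and 2.69 lines per 1000000, beside 16 and 15 lines that name GSAT_MM. They were not analysed further here.

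Pairs with a member made up 184 per 1000000 distinct pairs in ES-1 (425 pairs, 95% Wilson interval 167 to 202), 110 per 1000000 in ES-2 (137 pairs, 93.3 to 130), 1302 per 1000000 in ES indirect (2156 pairs, 1249 to 1358) and 45.5 per 1000000 in MEF (17 pairs, 28.4 to 72.8). The intervals of the 4 libraries do not overlap, and the pair of UV libraries of 1 cell line differed as well. Intervals cover counting error only, as if read pairs were independent, which they may not be, and leave out the spread between assays. In such bulk samples fewer cells with the RNA and less RNA per cell cannot be told apart. The order of ES-1 and ES-2 turned with the denominator. Among pairs of which both fragments had the full read length, 90 nt for RNA1 and 100 nt for RNA2, members took 2203 per 1000000 in ES-1, 5497 in ES-2 and 3644 in ES indirect.

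The fragments of these pairs were long. Both had the full read length in all 425 and all 137 member pairs of the UV libraries ES-1 and ES-2 and in 2152 of 2156 of ES indirect, whereas this held for 8.35%, 2.01% and 35.7% of all distinct pairs of those libraries. MEF had 0 pairs of that kind, with a member or without. Pieces of the linker were found in 0 member pairs of the ES libraries.

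Almost all member pairs of ES indirect came from 1 of its sequencing runs. On flow cell A, 2145 of 966458 distinct pairs had a member, which is 2219 per 1000000 (2128 to 2315), and on flow cell B 11 of 689018 had one, which is 16 per 1000000 (8.91 to 28.6). GSAT_MM moved with the members, with 439 fragments per 1000000 on flow cell A and 8.71 on B. MurSatRep1, another tandem satellite, had 150 and 117, and the nuclear lincRNA Malat1 had 1561 and 985. ES-1 had 260 member pairs per 1000000 on its flow cell A and 123 on B, and ES-2 had 110 and 111. MEF had 16 pairs on A and 1 on B. The share of full-length pairs differed too, at 48.0% on A and 18.4% on B in ES indirect and 10.2% and 6.86% in ES-1. Among full-length pairs, members were at 4621 per 1000000 on A and 78.7 on B of ES indirect. The values were 2542 and 1800 in ES-1 and 5659 and 5285 in ES-2. The member levels, counts and tests of ES indirect, where not given by flow cell, therefore rest almost wholly on flow cell A. On flow cell B alone its member level lies below ES-1 and ES-2, and the cause was not tested.

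**Figure D1:**
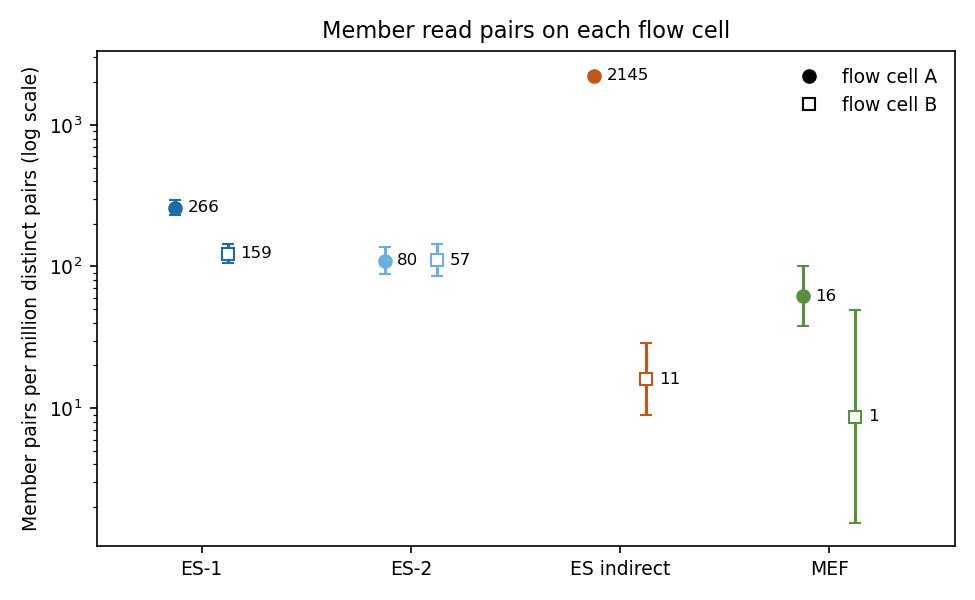
Distinct read pairs with a member per 1000000 distinct pairs (log axis) on each flow cell of each library, with 95% Wilson intervals and the number of pairs beside each point; flow cells are lettered within a library. ES indirect sits at 2219 on flow cell A and at 16 on flow cell B, while ES-2 sits at 110 and 111.

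Gm10800 was the most frequent name in the ES libraries. It had 58.7 fragments per 1000000 distinct fragments in ES-1 (271 fragments, interval 52.1 to 66.1) and 37.8 in ES-2 (94, 30.9 to 46.3). Its level was 429 in ES indirect (1421, 407 to 452) and 12 in MEF (9, 6.33 to 22.9). For Gm16869, the antisense lincRNA, the intervals were 44.0 to 56.9 in ES-1 (231 fragments), 21.2 to 34.3 in ES-2 (67), 277 to 314 in ES indirect (976) and 8.21 to 26.3 in MEF (11). The intervals of these 2 names overlap in ES-1, in ES-2 and in MEF, so their order there is not beyond counting error, and in ES indirect they do not overlap.

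Gm10718 was at 19.3 fragments per 1000000 (89 fragments) in ES-1 but at 2.01 (5) in ES-2, and at 108 (359) in ES indirect, with 0 of 747956 in MEF. In the same order of libraries, Gm10801 was at 11.7 (54 fragments), 6.04 (15), 77.3 (256) and 6.68 (5). Gm10722 was at 8.44 (39), 6.44 (16), 63.7 (211) and 0. A count of 0 in MEF allows up to 4.01 per 1000000. As a ratio, Gm10718 was the member that differed most between ES-1 and ES-2, though Gm10800 and Gm16869 were further apart in fragments per 1000000. Gm10718 was behind only Gm10800 and Gm16869 in ES-1 but last in ES-2.

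**Figure D2:**
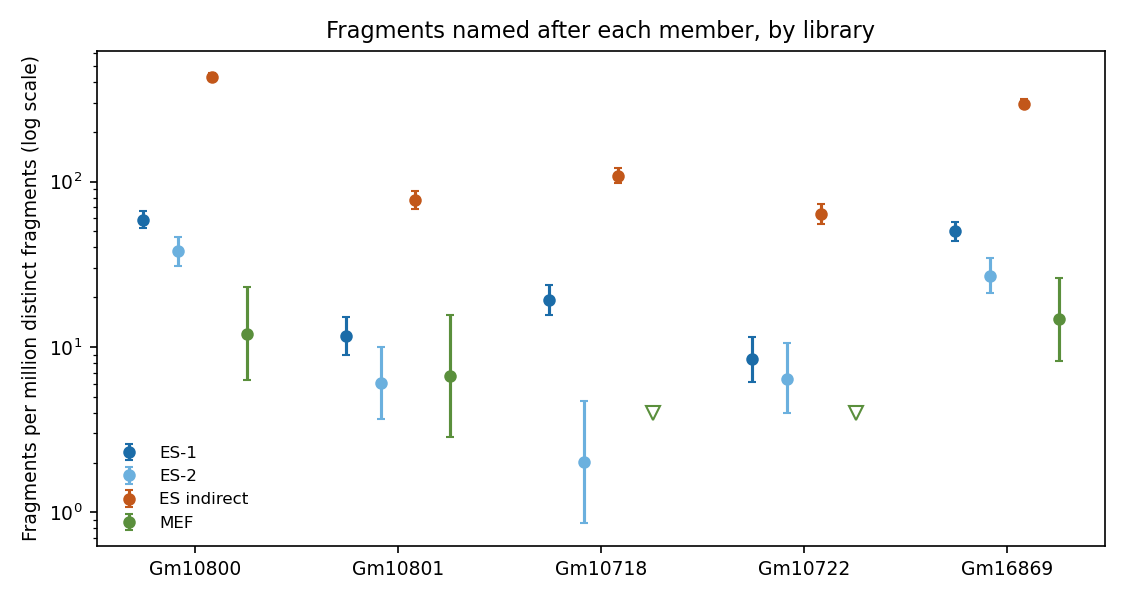
Fragments named after each of the 5 members per 1000000 distinct fragments (log axis) in each library, with 95% Wilson intervals; open triangles mark the limit of 4.01 that a count of 0 allows in MEF. ES indirect is highest for every member, and Gm10718 sits at 19.3 in ES-1 and 2.01 in ES-2.

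Per kilobase of gene the order was different. Gm10800 had 77.7, 50.1, 568 and 15.9 fragments per 1000000 per kb in that order, whereas Gm16869, which is 38032 bp long, had 1.31, 0.709, 7.75 and 0.387. Gm16869 spans Gm10718 and Gm10722, and each fragment carries 1 name. Fragments named after those genes are thus left out of its values per kb, although their stretches count in its length. Gm16869 fragments were annotated by the authors as intron or 3′ UTR (178 and 53 fragments in ES-1, 688 and 288 in ES indirect), and all fragments named Gm10800, Gm10718 or Gm10722 in the ES libraries were exonic.

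Across the 4 libraries, the profile of the family (148, 79.3, 973 and 33.4 member fragments per 1000000, in the order used above) was compared with that of 9954 other names with at least 50 fragments. The nearest, by Euclidean distance of centred log2(fragments per 1000000 + 1) over 4 libraries, were Mapk1ip1 (distance 0.109), Pcnp (0.270), Gm3164 (0.288), Malat1 (0.290) and Gm3298 (0.303). Malat1 was also near in level, with 200, 85.4, 1321 and 38.8 fragments per 1000000, both flow cells of ES indirect pooled. This does not hold on flow cell B alone. Malat1 had 985 fragments per 1000000 there and 1561 on A, while members were at 16 and 2219 pairs per 1000000 pairs, which is another measure. The other 4 names were far rarer and had 0 fragments in MEF. With 4 points per profile, which share library depth, these distances are a description.

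The name of a member did not fix the copy that the RNA came from. Of the member fragments of ES-1, 44 of 654 without an undetermined base matched NCBIM37 exactly anywhere, as did 15 of 187 in ES-2, 200 of 3220 in ES indirect and 14 of 25 in MEF. Of these exact matches 16, 3, 70 and 10 fell at more than 1 place. The rest differed from their stated place, by a median of 2 to 4 bases in the ES libraries for each gene. In ES-1, 240 of 359 fragments placed on chromosome 9 (66.9%, interval 61.8 to 71.5) had as few differences somewhere in the chromosome 2 locus, and 129 of 325 placed on chromosome 2 (39.7%, 34.5 to 45.1) had as few in the chromosome 9 cluster. In ES indirect the shares were 56.3% (53.9 to 58.8) and 39.4% (37.1 to 41.7). Counts for single members and for pairs of members are therefore uncertain. Strand and position on the unit, below, were read from the sequence and not from the name, except where strand is counted by gene.

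Both ends were named after members in 259 of 425 member pairs of ES-1 (60.9%, interval 56.2 to 65.5), 60 of 137 of ES-2 (43.8%, 35.8 to 52.2), 1067 of 2156 of ES indirect (49.5%, 47.4 to 51.6) and 8 of 17 of MEF (47.1%, 26.2 to 69.0). Most joined different members. Self pairs numbered 33, 9, 217 and 1, and cross-member pairs 226, 51, 850 and 7. The fragments lay on different chromosomes in 190 (73.4%), 47 (78.3%), 699 (65.5%) and 4 of them. Under strand-aware GENCODE names in place of the deposited ones, pairs with members at both ends were far fewer. They were 110 in ES-1 and ES-2 merged, 314 in ES indirect and 1 in MEF.

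The most frequent combination of the ES libraries joined Gm10800 with the lincRNA Gm16869, in 99 pairs of ES-1, 26 of ES-2 and 403 of ES indirect. In MEF it had 3 pairs, as had Gm10800 with Gm10801. The numbers predicted from the fragments of each name, if ends met at random, were 0.0135, 0.00254, 0.419 and 0.000132. These predictions are over all distinct pairs, those with ribosomal ends included. They are lower than within the narrower set of the tests below, where 4.82 was predicted in ES indirect. In ES-1 and ES-2 the members were chosen by such pairs, so nothing is read from the excess there. Gm16869 was RNA1 and Gm10800 RNA2 in 62, 25, 324 and 2 of these, so the order was uneven in each ES library. Gm10800 was joined with Gm10718 in 50, 4, 155 and 0 pairs and with Gm10722 in 27, 12, 112 and 0.

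Self pairs were frequent for Gm10800 (15, 6, 140 and 1) and Gm16869 (17, 3, 62 and 0). Gm10801 had 1, 0, 13 and 0. Gm10718 had 0, 0, 2 and 0 self pairs and Gm10722 had 0 in every library. These genes are longer than Gm10800 but had fewer fragments. In ES indirect the self pairs predicted from fragments were 0.0195 for Gm10718 and 0.00672 for Gm10722, against 0.305 for Gm10800. Gm10718 and Gm10722, which lie on the same strand of chromosome 9, were joined to each other in 0, 0, 9 and 0 pairs.

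**Figure D3:**
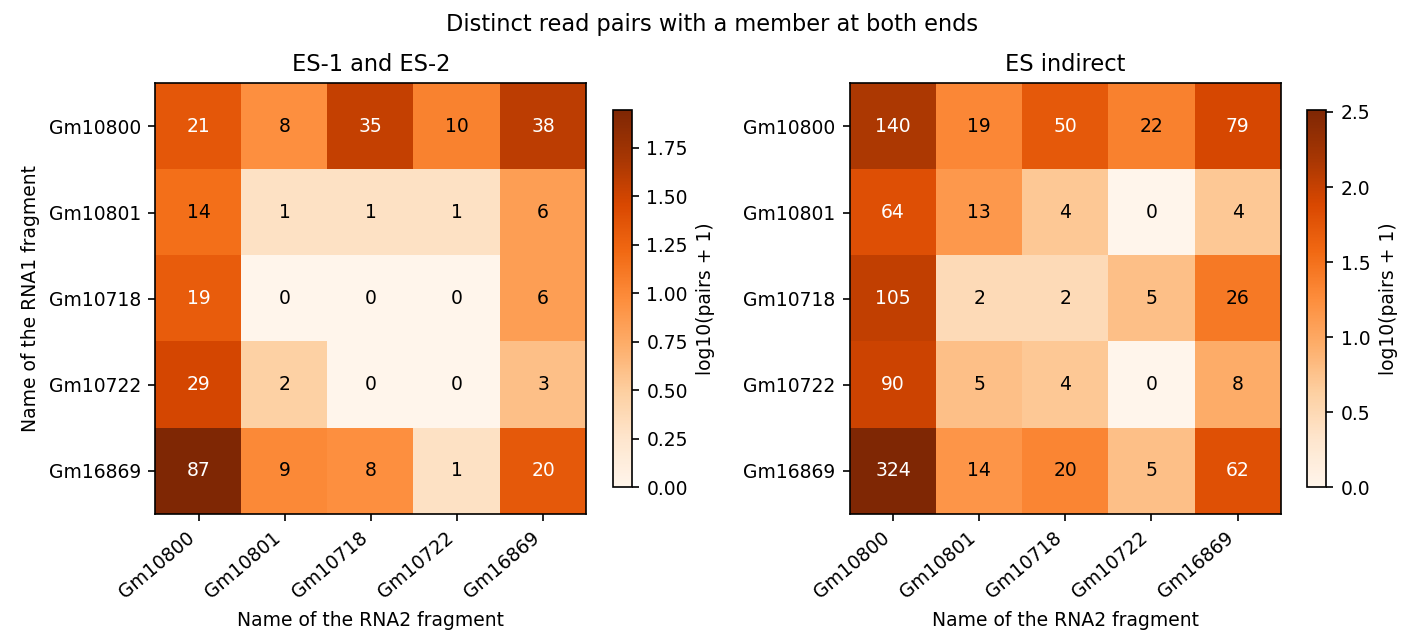
Distinct read pairs with a member at both ends, by the name of the RNA1 fragment (rows) and of the RNA2 fragment (columns), for ES-1 and ES-2 merged and for ES indirect; the number is in each cell and the colour is log10(pairs + 1). The fullest cell of both panels is Gm16869 as RNA1 with Gm10800 as RNA2, at 87 and 324.

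One-sided Fisher's exact tests with Benjamini-Hochberg adjustment were run on all pairs of RNAs joined by read pairs between different RNAs over 2000 bp apart. Read pairs with a ribosomal or unannotated end were left out. In ES indirect 196151 of 1655476 distinct pairs remained, and the tests and shares refer to such pairs only. The members were named from pairs of ES-1 and ES-2, but results of the other libraries were known as well, so the tests there are not wholly independent of the choice. In ES indirect, 40 of the 78 pairs of RNAs with a member were called (adjusted p under 0.05 and at least 3 read pairs), against 2.54% of all 142834 pairs tested. All 10 combinations of different members were among those called. They ran from Gm10800 with Gm16869 (403 read pairs, 4.82 predicted within this set of read pairs, adjusted p too small for the software to hold) and Gm10718 with Gm10800 (155 read pairs, 1.97 predicted, adjusted p = 4.19e-248) down to Gm10722 with Gm10801 (5 read pairs, 0.242 predicted, exact test, adjusted p = 2.81e-04). The p-values treat read pairs as the unit and carry no replicate error, and the fragments of near-identical genes share sequence. In ES indirect, 56.3% of fragments placed on chromosome 9 and 39.4% of those placed on chromosome 2 had as few differences at the other locus. Reads of the same repeat RNA can thus carry different member names, which the prediction from fragments leaves out. No join between different RNAs is therefore read from the calls of member with member.

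In MEF, 2 of 12 pairs of RNAs with a member were called, against 0.842% of 84322. They were Gm10800 with Gm10801 (3 read pairs, Fisher's exact test, adjusted p = 1.17e-08) and Gm10800 with Gm16869 (3 read pairs, exact test, adjusted p = 1.16e-07). With fragments under 20 nt or with linker pieces left out, 0 of 7 were called in MEF, because 10 of the 17 pairs remained. As in ES indirect, no join between different RNAs is read from the calls of member with member in MEF. ES-1 and ES-2 had 18 of 47 and 9 of 31 beside 1.09% and 0.719% of all pairs tested, and since the members were chosen there, nothing is read from these.

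Read by sequence instead of by name, nearly all member pairs were satellite at both ends. Both fragments were like the unit in 408 of 425 pairs of ES-1 (96.0%), 131 of 137 of ES-2 (95.6%), 2069 of 2156 of ES indirect (96.0%) and 14 of 17 of MEF (82.4%). Their median identity to the unit was 96.3% to 97.0%. In ES-1 and ES-2 0 fragments lay between 70% and 90%, so the limit of 80% separates 2 distinct groups of fragments there.

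In the ES libraries both fragments of a pair came from the same strand of the repeat. There RNA1 and RNA2 are written in opposite senses, since full-length pairs with both fragments near 1 locus were aligned to opposite strands in 99.9% for both UV assays and in 328781 of 328889 cases for ES indirect. RNA1 was taken as the sense fragment. On exons of protein-coding genes among full-length pairs, RNA1 was sense in 90.4% and RNA2 in 7.95% in ES-1 and in 87.4% and 12.9% in ES indirect, but in 64.9% and 33.7% in ES-2, so which strand an RNA of ES-2 came from is less certain. Read in this way, the strands agreed in 408 of 408 satellite pairs of ES-1 (interval 99.1 to 100), 131 of 131 of ES-2 (97.2 to 100) and 2069 of 2069 of ES indirect (99.8 to 100). MEF did not show this orientation on exons, where RNA1 was sense in 55.8% and RNA2 in 44.9%, and 39.6% of its nearby pairs were aligned to opposite strands. Read in the same way, strands agreed in 13 of its 14 satellite pairs, but the strand of MEF fragments is not settled by the exons and no strand share is given for it. On ES indirect's flow cell B, it was 10 of 10. In the frame of the genome, by contrast, both fragments were aligned to 1 strand in 77.9%, 73.0% and 72.0% of member pairs of the ES libraries.

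Over all satellite pairs of each ES library, the strand was more often the A-rich one. It gave 243 of 408 pairs in ES-1 (59.6%, interval 54.7 to 64.2), 109 of 131 in ES-2 (83.2%, 75.9 to 88.6) and 1554 of 2069 in ES indirect (75.1%, 73.2 to 76.9). ES-1 and ES-2 did not overlap. Among pairs of ES-1 with members at both ends the share was 52.7% (46.6 to 58.7), so neither strand led there beyond counting error. Counted by gene, Gm10800 fragments were sense to the gene in 49.4% in ES-1 (43.5 to 55.4), 12.8% in ES-2 (7.46 to 21) and 23.4% in ES indirect (21.2 to 25.6), and Gm16869 fragments in 65.4% (59.0 to 71.2), 82.1% (71.3 to 89.4) and 77.2% (74.4 to 79.7). Gm10718 fragments of ES-1 were sense, which is the T-rich strand, in 57.3% (46.9 to 67.1), whereas those of ES indirect were in 33.4% (28.7 to 38.5). Gm10801 and Gm10722 fragments were sense in 29.6% and 35.9% in ES-1. These shares by gene were read from the deposited name and strand, so they carry the uncertainty of the names. ES-2 was also the ES library in which exonic fragments were least strand-specific, so its share is uncertain, and the part of this in the difference from ES-1 was not tested.

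The distance between the outer ends of both fragments can be read on the unit, up to a whole number of units. It was 181 to 274 nt, modulo 234, in 319 of 408 pairs of ES-1 (78.2%, interval 73.9 to 81.9), 105 of 131 of ES-2 (80.2%, 72.5 to 86.1) and 1436 of 2069 of ES indirect (69.4%, 67.4 to 71.4). For comparison, full-length pairs with both fragments within 2000 bp of 1 locus outside satellites faced each other in 95.2%, 98.1% and 98.5%, with median outer lengths of 217, 255 and 213 nt. Folded onto 234 nt in the same way, 50.7%, 57.7% and 64.3% of those fell in this window. From 41 to 140 nt, satellite pairs had 9.07%, 8.40% and 18.5%, against 35.5%, 34.9% and 21.5% of the nearby pairs, so both kinds of pair were most frequent in the first range but differed in how much of them it held. These ranges were chosen after the values were seen.

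**Figure D4:**
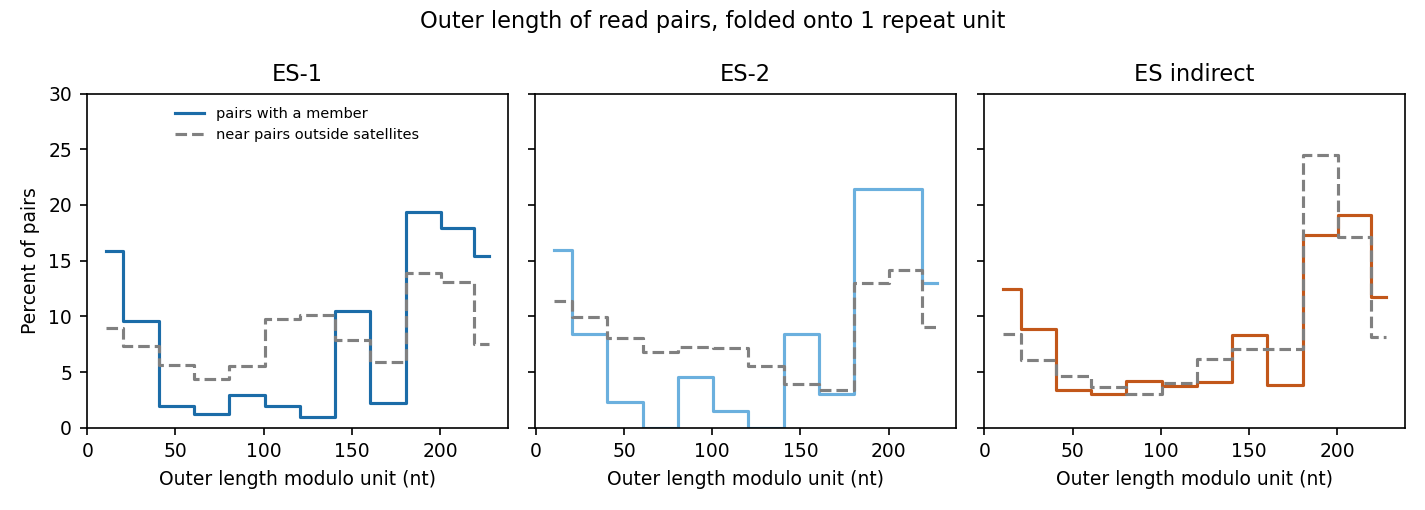
Outer length of read pairs folded onto the repeat unit of 234 nt, as percent of pairs in bins of 20 nt, for satellite pairs with a member (solid) and for full-length pairs at 1 locus within 2000 bp outside satellites (dashed grey). The last bin, 221 to 234 nt, is narrower than the others, and no correction is made for this. By percent, in all 3 ES libraries the fullest bins of both lines are 181 to 200 and 201 to 220 nt. The satellite pairs have a smaller rise at 141 to 160 nt.

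Where the outer length was short, the fragments overlapped on the unit and could be compared base by base. Among overlaps of at least 20 nt, both reads were identical in 35 of 61 pairs of ES-1 (57.4%), 8 of 14 of ES-2 (57.1%) and 66 of 382 of ES indirect (17.3%), and the genome copies to which they had been assigned were identical there in 17, 3 and 118. All identical reads overlapped by 30 to 60 nt, a range chosen after the values were seen, which held 46, 11 and 218 of the overlaps. The other 15, 3 and 164 overlaps held 0, which the choice of range fixed, so no limit on the share is drawn from it. In ES-1 the reads thus matched each other more often than the stated copies did. In ES indirect they did not, but pairs without a true overlap may be among the 382. Within 30 to 60 nt the counts there were 66 for reads and 70 for stated copies, of 218.

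A pair of ES-1 shows this. RNA1 was assigned to Gm10718 (chr9:3024390-3024479) and RNA2 to Gm10800 (chr2:98507269-98507368), both aligned to the minus strand. It was chosen, after the values were seen, as the pair between chromosomes with identical reads whose stated copies differ most. Both are written here in the direction of the RNA, which is the A-rich strand, and capitals mark the 48 nt that they have in common.
RNA1, Gm10718: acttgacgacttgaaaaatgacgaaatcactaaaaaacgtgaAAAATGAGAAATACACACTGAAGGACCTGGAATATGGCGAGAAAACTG
RNA2, Gm10800: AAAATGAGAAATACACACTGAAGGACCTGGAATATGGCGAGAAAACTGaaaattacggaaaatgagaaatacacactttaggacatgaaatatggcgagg

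The common stretch ends RNA1 and begins RNA2, so that together they span 142 nt if no whole unit lies between them. The stated copies on chromosomes 9 and 2 differ at 2 bases within it, and RNA1 and RNA2 differ from their own stated copies at 4 and 3 bases.

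Along the unit, midpoints of member fragments were uneven. Counted in 10 equal parts, the fullest held 114 of 677 fragments of ES-1 (16.8%, nt 95 to 117) and 545 of 3175 of ES indirect (17.2%, nt 118 to 141). ES-2 had 2 equally full parts, with 31 of 194 each (nt 95 to 117 and 165 to 188). The emptiest was nt 72 to 94 in ES-1 (17 fragments, 2.51%) and ES-2 (5, 2.58%), where ES indirect had 284 (8.94%), and nt 48 to 71 in ES indirect (125, 3.94%). The end next to the linker was also used in place of the midpoint. Nearly all these fragments had the full read length and no linker piece, so this end is where the read stopped. It lies a fixed distance from the midpoint, so a different fullest part was to be expected and says nothing of the linker. The counts stayed uneven and another part was the fullest. It was nt 165 to 188 in ES-1 and ES-2 merged (162 of 871 fragments, 18.6%), of which ES-1 gave 131, and nt 189 to 211 in ES indirect (445 of 3175). In ES-2 alone it was nt 48 to 71, with 32 of 194 against 31 at nt 165 to 188. The parts that were fullest by midpoint, with 16.6% and 17.2%, then held 6.31% and 6.49%, so which part is fullest depends on the point of the fragment that is used.

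**Figure D5:**
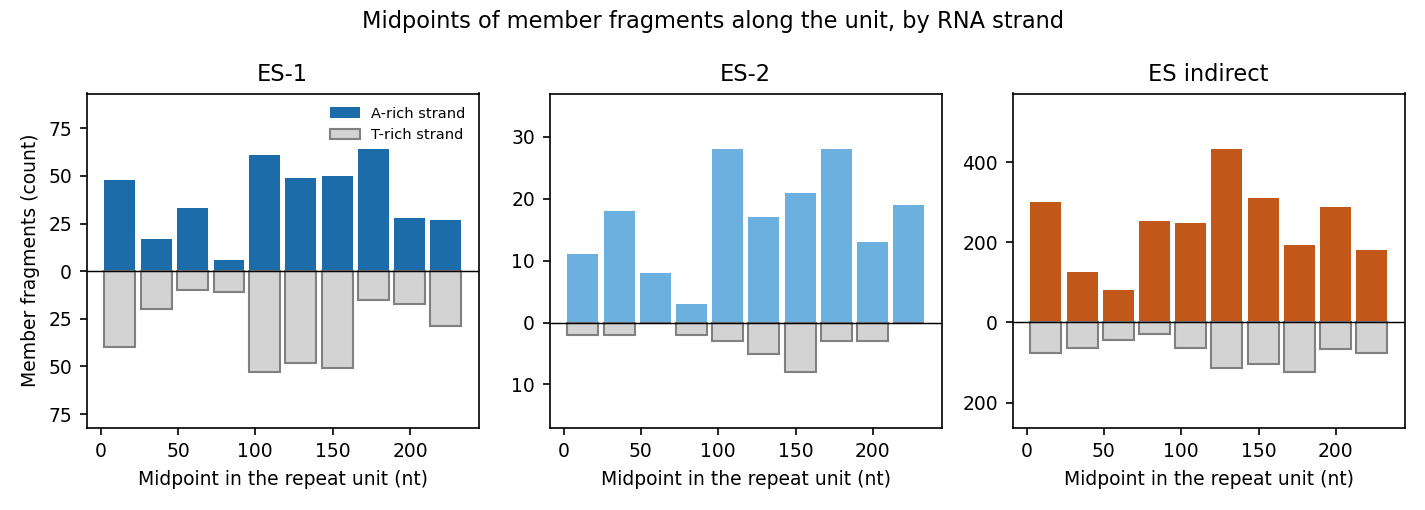
Number of member fragments whose midpoint falls in each of 10 equal parts of the 234 nt unit, with RNA of the A-rich strand above the line and of the T-rich strand below it, for the 3 ES libraries (each panel has its own scale). The part from 118 to 141 nt is the fullest of ES indirect, at 545 fragments, of which 432 are of the A-rich strand.

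In the ES libraries, partners without a member name were mostly other names of the same repeat. GSAT_MM, the repeat name of the major satellite, led with 149 pairs in ES-1 and ES-2 merged, 701 in ES indirect and 2 in MEF, and all of these partner fragments were like the unit. In ES merged it was followed by Gm11167 (19), Gm10106 (10), Gm10719 (8) and Gm10721 (8), and in ES indirect by Gm11167 (66) and Gm10719 (40). These are predicted genes that hold the same repeat, and every partner fragment with 1 of these names was like the unit. In MEF, by contrast, 6 of the 17 pairs had a partner outside the satellite and predicted-gene names. After GSAT_MM, 7 names were tied at 1 pair each, of which Cdk5rap2 (a centrosome protein gene), Gm10716, L1MA9 and Zufsp had a fragment like the unit and Fam73a, Gbp11 and Syne1 did not.

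The Fisher tests in ES indirect called GSAT_MM with every member, from Gm16869 (294 read pairs, 3.51 predicted) to Gm10722 (55, 0.881 predicted, adjusted p = 8.27e-78). They also called Gm10800 with Gm11167 (51 read pairs, 0.556 predicted, exact test, adjusted p = 3.66e-84), Gm10721 (28), Gm10719 (29), Gm10720 (21), Gm10106 (16), Gm10717 (15), Gm17535 (15) and Gm10716 (14). The partner fragments with these names were all like the unit, so no join between different RNAs is read from these calls either. Of the 10 predicted genes listed as neighbours of the same kind of locus, 7 had fragments in ES indirect and each of the 7 shared at least 2 read pairs with a member. Gm10802, Gm10803 and Gm10799 had 0 fragments in every library.

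Gm10801 had a set of partners of its own. Its pairs with SYNREP_MM, another satellite name, numbered 6 in ES-1 and ES-2 merged and 33 in ES indirect (0.0868 predicted, Fisher's exact test, adjusted p = 5.37e-74), and no other member was joined with SYNREP_MM. Neither fragment was like the unit in any of these pairs, so they fall in the stretch of Gm10801 outside the repeat. Chl1, a neuronal cell adhesion gene, is named here outside the rule after its values were seen. It was joined with Gm10801 in 2 pairs of ES merged and 10 of ES indirect (0.0926 predicted, Fisher's exact test, adjusted p = 1.62e-15). Again neither fragment was like the unit. Partner fragments named SYNREP_MM and Chl1 had close median identities to the unit in ES indirect, 64.0% and 63.7%. Whether Gm10801, SYNREP_MM and Chl1 share sequence there was not tested, so no join between different RNAs is read from these calls. MMSAT4 and MurSatRep1, 2 further satellites, had 61 and 95 fragments in ES-1 and 244 and 451 in ES indirect, and shared 0 pairs with a member, but they are too rare for anything to be read from the 0.

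Joins of satellite RNA to RNA of another kind were rare in the ES libraries. The partner was not like the unit while the member end was in 11 of 425 pairs of ES-1 (2.59%, interval 1.45 to 4.57), 3 of 137 of ES-2 (2.19%, 0.747 to 6.24), 40 of 2156 of ES indirect (1.86%, 1.37 to 2.52) and 2 of 17 of MEF (11.8%, 3.29 to 34.3). The intervals of the 3 ES libraries overlap, whereas that of MEF overlaps those of ES-1 and ES-2 and lies above that of ES indirect. Ribosomal RNA, 57.0% of all fragments in ES-1, 54.1% in ES-2 and 44.8% in ES indirect, was the other end of 0 of 684, 0 of 197 and 2 of 3223 member fragments. The 0 of ES-1 allows a share of up to 0.439%. The shares over all fragments come from pairs of every length, while nearly all member pairs of the ES libraries were full-length. The ribosomal share among full-length pairs was not measured. The members were also chosen in ES-1 and ES-2 for joining each other, so nothing particular to them is read from these counts.

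Genes of heterochromatin proteins were looked for among the partners, because satellite RNA is known to meet these proteins. Of 28 such names, among them Suv39h1 and Suv39h2 (histone H3 lysine methyltransferases), Cbx5 (heterochromatin protein 1), Atrx and Safb, 27 had fragments in ES-1 and in ES indirect and 26 in ES-2 and in MEF. Their RNAs shared 0 read pairs with a member in each of the 4 libraries, which in ES indirect allows up to 0.139% of member pairs. These RNAs are a small share of all fragments, so nothing particular to the members is read from the 0. MARIO reads RNA only, so it says nothing of their proteins either.

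Pairs with equal coordinates in different libraries were few, for members and for all pairs. Between ES-1 and ES indirect, 1 member pair was shared (0.235% of the member pairs of ES-1 and 0.0464% of those of ES indirect), beside 0.559% and 0.781% of all pairs. Between every other 2 libraries 0 member pairs were shared, beside 0.0386% to 1.08% of all pairs, and nothing particular to the members is read from these counts.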

How the data were processed

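The deposited files hold no measured value: per the study's methods, each line is 1 read pair with place, strand, sequence, RNA type and name of both fragments. According to the methods, the authors removed duplicates by place and random barcode, located the linker, split molecules and kept fragments with 1 place in mm9. The submitters' processing notes name TopHat2 2.1.1 and NCBIM37. Lines with equal coordinates were counted as 1 here, 2735 member pairs in all. The deposited places of the ES libraries were compared with NCBIM37 and GENCODE vM1.

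Fragments were placed on the repeat unit with edlib 1.3.9.post1 (identity of at least 80%), which was tested on simulated fragments. The unit length is the lag of highest self-identity from 200 to 300 bp, since the highest at Gm10800 without that limit was 485 bp, and copies were averaged allowing insertions. Pair tests used scipy 1.17.1 and statsmodels 0.14.6, with Wilson intervals of 95%. The study's Fisher's exact test was kept, with a minimum of 3 read pairs added. Flow cells were read from read names, and a pair counts on that of its first line. The members and lists were chosen with earlier results of these data known. The named partners are the 5 with most pairs in ES-1 and ES-2 merged, the 3 with most in ES indirect and in MEF (ties in alphabetical order; the other names tied in MEF were added after their values were seen), and up to 10 called per library. Alternatives are given in the closing section.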

Additional observations from a re-analysis of the deposited data

How the results depend on the processing

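No paired analysis was possible because no result compares groups by a replicated test. Of 91 alternative values, 65 stayed within 1.5 times of the count or within the spread or interval of the share. As a share of distinct pairs, ES indirect was at 0.222% on flow cell A alone, above ES-1 and ES-2, and at 0.00160% on B alone, below both. The order of ES-1 and ES-2 turned at full length, with 2203 and 5497 per 1000000. The share of member pairs in ES merged was 0.0158% of distinct pairs and 0.0110% to 0.0184% leaving out either assay, and, with denominators chosen after seeing the data, 0.0878% of pairs without ribosomal ends and 0.258% of full-length pairs. In ES indirect, 0.130% became 0.0667% over all lines, 0.152% over fragments of at least 20 nt without linker pieces, 0.301% without ribosomal ends and 0.364% at full length. In MEF, 0.00455% became 0.0104% with that fragment filter and 0.00847% without ribosomal ends. Called pairs with a member in MEF, 2, became 0 with the fragment filter, 12 with a minimum of 1 read pair and 1 with a distance of 10000 bp. Pairs with both ends in members under strand-aware GENCODE names were 110 in ES merged (319 as deposited) and 314 in ES indirect (1067). In MEF they were 1 (8 as deposited). Under the deposited names, such pairs were 5 in MEF with the fragment filter. In ES merged they were 60 to 259 leaving out either ES assay, again under the deposited names. The A-rich strand gave 59.6% to 83.2% of ES pairs leaving out either assay. By the end next to the linker, where full-length reads stop, the part of the unit that was fullest by midpoint held 6.31% in ES merged and 6.49% in ES indirect. Another part was then the fullest, with 18.6% in ES merged and 445 of 3175 fragments in ES indirect. With reads of fixed length this change was to be expected. The cause was not tested where the setting itself does not show it. MEF, with 17 member pairs, limits every statement on it.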
